A study of Mus musculus with 2 samples.

Results

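The erythroid cells described here are 85 barcodes of a single-cell RNA library from pancreatic tumours of mice treated with takinib, an inhibitor of the kinase TAK1 (encoded by Map3k7). They were chosen by measured values: a barcode needed at least 1000 UMIs (unique molecular identifiers, each counted as 1 captured transcript), at least 500 genes and at most 20% mitochondrial UMIs. At least 5% of its UMIs had to come from the adult globin genes Hbb-bs, Hbb-bt, Hba-a1 and Hba-a2, with S100a8 plus S100a9 under 3% of UMIs, at most 2 UMIs of C1qa, C1qb and C1qc together, and none of Cd79a, Cd3e or Epcam. Of 26790 takinib barcodes past the filters 85 met the rule, which is 0.317% [0.254, 0.392], and of 9872 vehicle barcodes 1 met it, which is 0.0101% [0.000256, 0.0564]. Intervals on shares are 95% Clopper-Pearson and intervals on levels are 95% exact Poisson. Both cover counting error only. The study compared KPPC mice, a genetically engineered model of pancreatic cancer, at 6 weeks of age, given vehicle or takinib at 50 mg/kg over 14 days. All mice of both groups were KPPC. The labels do not spell out its alleles or the number of animals in a library. Tumours were minced and digested with collagenase A and DNase-I, with 1 library per treatment, so that no test was possible and no p-value is given.

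Erythroid cells make haemoglobin in stages. Committed progenitors express Kit, Gata2 and Myb. Proerythroblasts switch on the transcription factors Gata1 and Klf1 and the transferrin receptor Tfrc, and divide several times while globin, heme enzymes and membrane proteins build up. Late erythroblasts leave the cell cycle, lose their nucleus and shed ribosomes, mitochondria and most transcripts as reticulocytes. In adult mice this normally takes place in bone marrow and, under demand, in the spleen, while circulating reticulocytes and red cells pass through every vascularised tissue.

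The sequences before the RefSeq starts of the globin genes, and of Alas2, the erythroid enzyme that starts heme synthesis, are shown because the globin genes chose the cells and Alas2 is the heme gene followed below. Each is the 250 bases before the RefSeq start of the gene, in GRCm38.p6, written in the gene's own direction. Capitals mark matches to GATAA, the letters bound by GATA factors, to CACCC, the letters bound by Klf1, and to the CCAAT box, each searched on both strands. The Hbb-bs window lies at chr7:103827929-103828178 on the minus strand, Hbb-bt at chr7:103813924-103814173 on the minus strand, Hba-a1 at chr11:32283422-32283671 on the plus strand and Alas2 at chrX:150547167-150547416 on the plus strand.
Hbb-bs: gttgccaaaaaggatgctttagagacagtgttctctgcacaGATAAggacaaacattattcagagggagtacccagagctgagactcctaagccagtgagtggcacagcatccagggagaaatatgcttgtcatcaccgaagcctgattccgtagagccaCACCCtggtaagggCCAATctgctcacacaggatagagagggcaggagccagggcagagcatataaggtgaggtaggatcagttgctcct
Hbb-bt: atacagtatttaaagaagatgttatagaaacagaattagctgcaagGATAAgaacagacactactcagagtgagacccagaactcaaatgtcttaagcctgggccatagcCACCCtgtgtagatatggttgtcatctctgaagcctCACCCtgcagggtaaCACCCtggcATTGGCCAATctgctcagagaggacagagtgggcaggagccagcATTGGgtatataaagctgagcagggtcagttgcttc
Hba-a1: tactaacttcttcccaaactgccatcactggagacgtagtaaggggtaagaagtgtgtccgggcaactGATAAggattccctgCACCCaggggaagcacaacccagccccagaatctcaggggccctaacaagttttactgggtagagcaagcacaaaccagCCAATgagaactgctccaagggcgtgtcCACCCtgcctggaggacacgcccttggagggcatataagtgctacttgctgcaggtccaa
Alas2: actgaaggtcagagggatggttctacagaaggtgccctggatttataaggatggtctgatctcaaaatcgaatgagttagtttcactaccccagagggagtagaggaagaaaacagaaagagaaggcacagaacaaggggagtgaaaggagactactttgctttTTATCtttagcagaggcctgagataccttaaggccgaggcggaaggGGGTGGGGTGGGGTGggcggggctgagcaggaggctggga
GATAA was found in 22.6% of the 32851 promoter windows of this length, CACCC in 52.0% and the CCAAT box in 33.9%, and 3.45% held all of them. The 4 globin windows were among those holding all of them, while the Alas2 window held GATAA and CACCC. A match describes letters only and does not show that a factor is bound. The Hba-a2 window was not printed because 247 of its 250 bases formed a single run identical to Hba-a1.

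Hbb-bs (ENSMUSG00000052305) spans positions 103826534 to 103828096 of chromosome 7 and Hbb-bt (ENSMUSG00000073940) 103812524 to 103813996, in GENCODE M21 on GRCm38. Hba-a1 (ENSMUSG00000069919) spans 32283511 to 32284465 of chromosome 11, Hba-a2 (ENSMUSG00000069917) 32296489 to 32297298, and Alas2 (ENSMUSG00000025270) 150547375 to 150570638 of chromosome X. These GENCODE spans begin before the RefSeq starts, so that 168 bases of the Hbb-bs window lie inside the GENCODE gene, as do 73 of Hbb-bt, 161 of Hba-a1, 3 of Hba-a2 and 42 of Alas2. The longest coding transcripts of Hba-a1 and Hba-a2 differed at 1 of 538 aligned bases, and those of Hbb-bs and Hbb-bt at 48 of 630. The split of counts within each pair is therefore uncertain, that of the alpha pair most of all, and so is the alpha total, because how reads matching both copies were counted is not given in the sources used here.

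The deposited matrices differed in ways that go with treatment. The vehicle matrix listed 704261 barcodes, 470280 of them with at least 1 UMI, and the takinib matrix 34158 barcodes of at least 500 UMIs, made by different versions of Cell Ranger. Barcodes past the filters had a median of 3594.5 UMIs in vehicle and 3049.5 in takinib. Globin stood at 171 CPM (counts scaled to a common total of UMIs) over all vehicle barcodes and at 4227 CPM over all takinib barcodes. Counting only barcodes past the filters with under 5% globin, vehicle had 24.6 CPM of it and takinib 297, so globin RNA outside these cells was also higher in takinib. Treatment, animal, software and barcode selection cannot be told apart. Of the 85 erythroid barcodes, 59 occurred in the vehicle matrix with at least 1 UMI and 3 among the vehicle barcodes past the filters, against 17240 and 400 of all 26790 takinib barcodes.

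**Figure D1:**
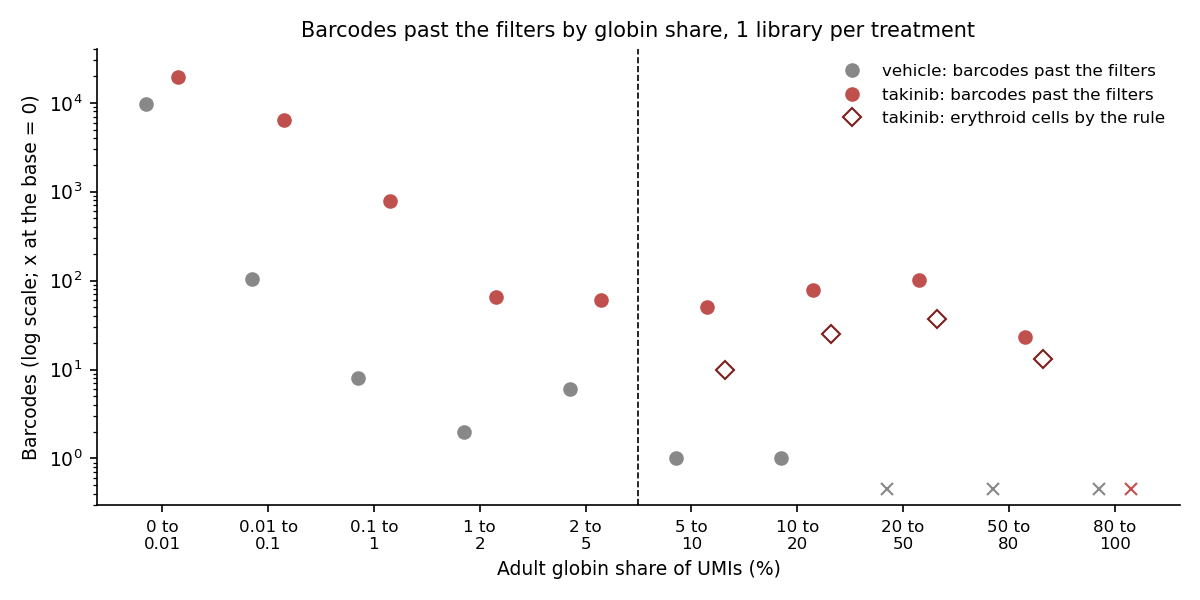
Number of barcodes past the filters (vertical, log scale, crosses at the base mark 0) by adult globin share of UMIs (horizontal, percent), with filled points for each library and diamonds for the 85 takinib erythroid cells; the dashed line is the 5% minimum. Takinib held 253 barcodes at or above 5% and vehicle 2, and no barcode past the filters reached 80%.

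Above the 5% minimum lay 253 takinib barcodes, of which 168 were left out because they also carried transcripts of other cells. Of those, 94 exceeded the S100a8 and S100a9 limit, 71 the C1q limit and 34 held Cd79a, Cd3e or Epcam, with some failing more than 1 limit. Even so, 143 of the 168 held at least 3 UMIs of the erythroid markers named below. Just outside the globin limit, 6 takinib barcodes had 4 to 5% globin and otherwise met the rule, and 1 member had 5 to 6%. Near the S100 limit, 12 members had 2 to 3% and 9 barcodes were left out at 3 to 4%.

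The label was checked on genes that the rule did not use. The check took 15 erythroid genes other than globin, among them Alas2, Slc4a1 (the anion exchanger of the red cell membrane), Klf1, Gata1, Rhd and Sptb (beta spectrin). At least 3 of their UMIs were found in 81 of the 85 cells, 95.3%, and all 85 had at least 1. Takinib barcodes of under 5% globin served for comparison, as neutrophils (S100a8 plus S100a9 at least 3%) and C1q macrophages (at least 5 C1q UMIs). The same count was reached by 48 of 12484 neutrophils, 0.384%, and by 33 of 4431 macrophages, 0.745%, at median depths of 2271 and 6668 UMIs against 3008. Without the globin limit, an alternative chosen after seeing the data, the shares were 1.03% of 12578 and 1.74% of 4485, since 81 of the 94 and 45 of the 54 barcodes so added reached the count. Summed over cells, the markers stood at 4504 CPM in erythroid cells, 19.3 in neutrophils and 25.6 in macrophages, with CPM here and below taken over non-globin UMIs. Alas2 itself was found in 79 of 85 cells. The single vehicle member had 1927 UMIs, 12.6% globin and 2 marker UMIs, both of Alas2.

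Among the adult globin genes that chose the cells, most counts were of the beta genes. Hbb-bs made up 75.1% of the 4-gene globin total, Hbb-bt 18.7%, Hba-a1 3.93% and Hba-a2 2.27%. Per cell, Hbb-bs ran from 103 to 2590 UMIs with a median of 768, Hbb-bt from 14 to 728 with a median of 186, Hba-a1 from 7 to 134 with a median of 41, and Hba-a2 from 1 to 80 with a median of 24. All 4 genes were therefore present in all 85 cells. The alpha genes took a larger part of the little globin found in other cells: Hba-a1 made up 9.72% of globin UMIs in neutrophils and 9.11% in macrophages. Of the embryonic genes, Hbb-y, Hbb-bh1 and Hbb-bh2 had 0 UMIs, Hba-x 1 and Hbq1a 2, whereas Hbq1b, a theta globin, had 32 UMIs in 24 cells.

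Globin share ran from 5.54% to 64.8% of UMIs with a median of 24.2%. It was used to lay the cells out by haemoglobin content, as ranges and not as types: 35 cells held 5 to 20%, 37 held 20 to 50%, 13 held 50 to 80% and 0 held more. Within 10% of the cut at 20% lay 9 cells, and within 10% of the cut at 50% lay 13. Cells of higher globin share held fewer other UMIs, fewer genes, and smaller ribosomal and mitochondrial shares. Median non-globin UMIs were 5160, 1875 and 1113 in the 3 ranges from low to high globin, median genes 1708, 931 and 627, and ribosomal protein genes a median of 15.3%, 8.06% and 6.36% of non-globin UMIs. The median mitochondrial share was 1.89%, 1.67% and 0.761% of UMIs. Because globin is part of the total, a cell of few other transcripts has a high globin share by construction, and the order of the ranges is not a time course.

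Heme synthesis did not go one way along these ranges. Alas2, the first and erythroid-specific step, stood at 517 CPM [422, 626] in the 5 to 20% range, 1316 [1090, 1575] at 20 to 50% and 3372 [2503, 4445] at 50 to 80%, and none of the intervals overlap. The order depends on the scale. Per cell, Alas2 had 2.97, 3.22 and 3.85 UMIs, over all UMIs it stood at 453, 899 and 1449 CPM, and per 1000 globin UMIs it went the other way, at 3.66, 2.83 and 2.54. The log2 ratio of the middle over the lowest range, with 10 CPM added to each, was 1.33. It was 1.89 with the globin minimum set at 2%. Cpox, a mitochondrial enzyme of the pathway, stood at 353 and 542 CPM and then 0 UMIs. Fech, which inserts iron, stood at 303, 575 and 337 CPM, and Tmem14c, a mitochondrial porphyrin transporter, at 696 and 442 CPM and then 0 UMIs. Alas2 was thus the heme gene highest in the cells of most globin, where a count of 0 allows up to 202 CPM (3 counts). Between the lowest and the middle range, 2 of 13 heme genes were at least 2-fold higher, Alas2 and Ppox, and 1 was at least 2-fold lower, Alas1, the form used outside erythroid cells, with a list median of 0.45. Of the 13 genes 0 were 2-fold higher when CPM was taken over all UMIs, and the median was -0.04 when 2000 UMIs and 1000 genes were required. Over all 4258 genes of at least 10 UMIs, 9.42% were at least 2-fold higher, 10.8% at least 2-fold lower, and the median was 0.01. When CPM was taken over all UMIs, globin included, the all-gene median moved to -0.29, with 194 genes higher and 747 lower in place of 401 and 461.

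Membrane and skeleton genes were the list with the largest number of genes above 2-fold. Of 22 genes 10 were at least 2-fold higher in the middle range and 0 lower, with a median of 0.86, but the count was 5 when CPM was taken over all UMIs and 5 when cells were split at the median globin share. Slc4a1 stood at 676 CPM [567, 800] at 5 to 20% globin, 1416 [1181, 1683] at 20 to 50% and 472 [190, 973] at 50 to 80%, and per cell it had 3.89, 3.46 and 0.538 UMIs. Sptb stood at 174 CPM in the lowest and 376 CPM in the middle range. Epb41, which ties spectrin to actin, stood at 179, 487 [354, 653] and 877 [467, 1499] CPM, and the last 2 intervals overlap. It had 36, 44 and 13 UMIs in ranges of 35, 37 and 13 cells, so the last range was not highest per cell. The blood group genes Rhd and Ermap stood at 298 and 189 CPM in the lowest range, 465 and 398 CPM in the middle and 0 UMIs at 50 to 80%. The log2 ratio of Rhd between the lower ranges was 0.62, but -0.92 when 2000 UMIs and 1000 genes were required, which left 28 and 17 cells in them. Across the 15 erythroid markers as a whole, 9 were at least 2-fold higher in the middle range and 0 lower (median 1.06), and their sum was 3296, 7145 and 4788 CPM.

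Transcription factors of the lineage were scarce in every range. Klf1 had 13, 3 and 0 UMIs in the ranges from low to high globin, Gata1 10, 5 and 0, Tal1 18, 8 and 0, and Gfi1b 14, 2 and 0. Foxo3 had 14, 13 and 4 UMIs and Klf3 34, 30 and 4, with intervals on their CPM that overlap between neighbouring ranges. These counts are too low to order the ranges. Of 13 factors of at least 10 UMIs 0 were at least 2-fold higher and 1, Gfi1b, at least 2-fold lower between the lowest and middle range (median 0.35). That is near the 10.8% of all genes that were lower.

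Among genes of early stages, Car1 was lower in each range of higher globin, and Tfrc only in the range of most globin. Car1, a carbonic anhydrase of early erythroid cells, stood at 338 CPM [262, 429] at 5 to 20% and 66.4 [24.4, 144] at 20 to 50%, a log2 ratio of -2.19, with 0 UMIs at 50 to 80%. Its 74 UMIs came from 12 cells. Ncl and Npm1, nucleolar proteins of growing cells, stood at 318 and 492 CPM in the lowest range and 133 and 288 CPM in the middle. Tfrc, through which cells take up transferrin iron, went the other way, at 413 and 807 CPM, and had 0 UMIs in the range of most globin. Of the 10 proerythroblast genes 0 were at least 2-fold higher and 2 lower, Car1 and Ncl, against 10.8% of all genes lower, with a median of -0.52. The number lower was 6 with a globin minimum of 2% and 5 with CPM over all UMIs. Of the 12 progenitor genes, Kit (7 UMIs in 3 cells), Gata2 (1 UMI) and Myb (1 UMI) were almost absent, and Hlf and Meis1 had 0 UMIs. Others were present: Cd44 had 76 UMIs, Spi1 63, Itga4 62, Runx1 34 and Cd34 11. Of these 5 genes 0 were at least 2-fold higher in the middle range and 1 lower, Cd34 (median 0.38).

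Of 14 genes of late erythroblasts 8 were at least 2-fold higher in the middle than in the lowest range and 0 lower, against 9.42% of all genes higher, with a median of 1.22, but the count was 3 when 2000 UMIs and 1000 genes were required. Bpgm, the bisphosphoglycerate mutase that tunes oxygen release from haemoglobin, stood at 149 CPM [101, 213], 509 [372, 679] and 1686 [1091, 2489] in the 3 ranges. Mkrn1, a ubiquitin ligase, stood at 338, 653 and 1821 CPM. Per cell, Bpgm had 0.857, 1.24 and 1.92 UMIs, whereas Mkrn1 had 1.94, 1.59 and 2.08, so that the order of Mkrn1 is one of its share of non-globin UMIs and not of its count. Ube2l6, a conjugating enzyme, stood at 184, 453 and 1349 CPM. Bnip3l, which takes mitochondria to autophagy in reticulocytes, stood at 388, 630 and 1416 CPM, and Ubb, a ubiquitin gene, at 1571, 2079 and 4923 CPM. Bnip3l had 78, 57 and 21 UMIs and Ubb 316, 188 and 73 in ranges of 35, 37 and 13 cells. Neither was therefore highest per cell in the range of most globin. Neutrophils held 316 CPM of Bnip3l and 1275 CPM of Ubb, so these 2 genes are not erythroid alone, whereas Bpgm was at 6.33 CPM there. Tmcc2 and Ypel4, also past 2-fold between the lower ranges, had 27, 33 and 0 UMIs and 5, 9 and 0 UMIs. Tent5c, a poly(A) polymerase, was not on the list but was among the 10 genes with the largest ratios, at 99.4, 354 and 1686 CPM.

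**Figure D2:**
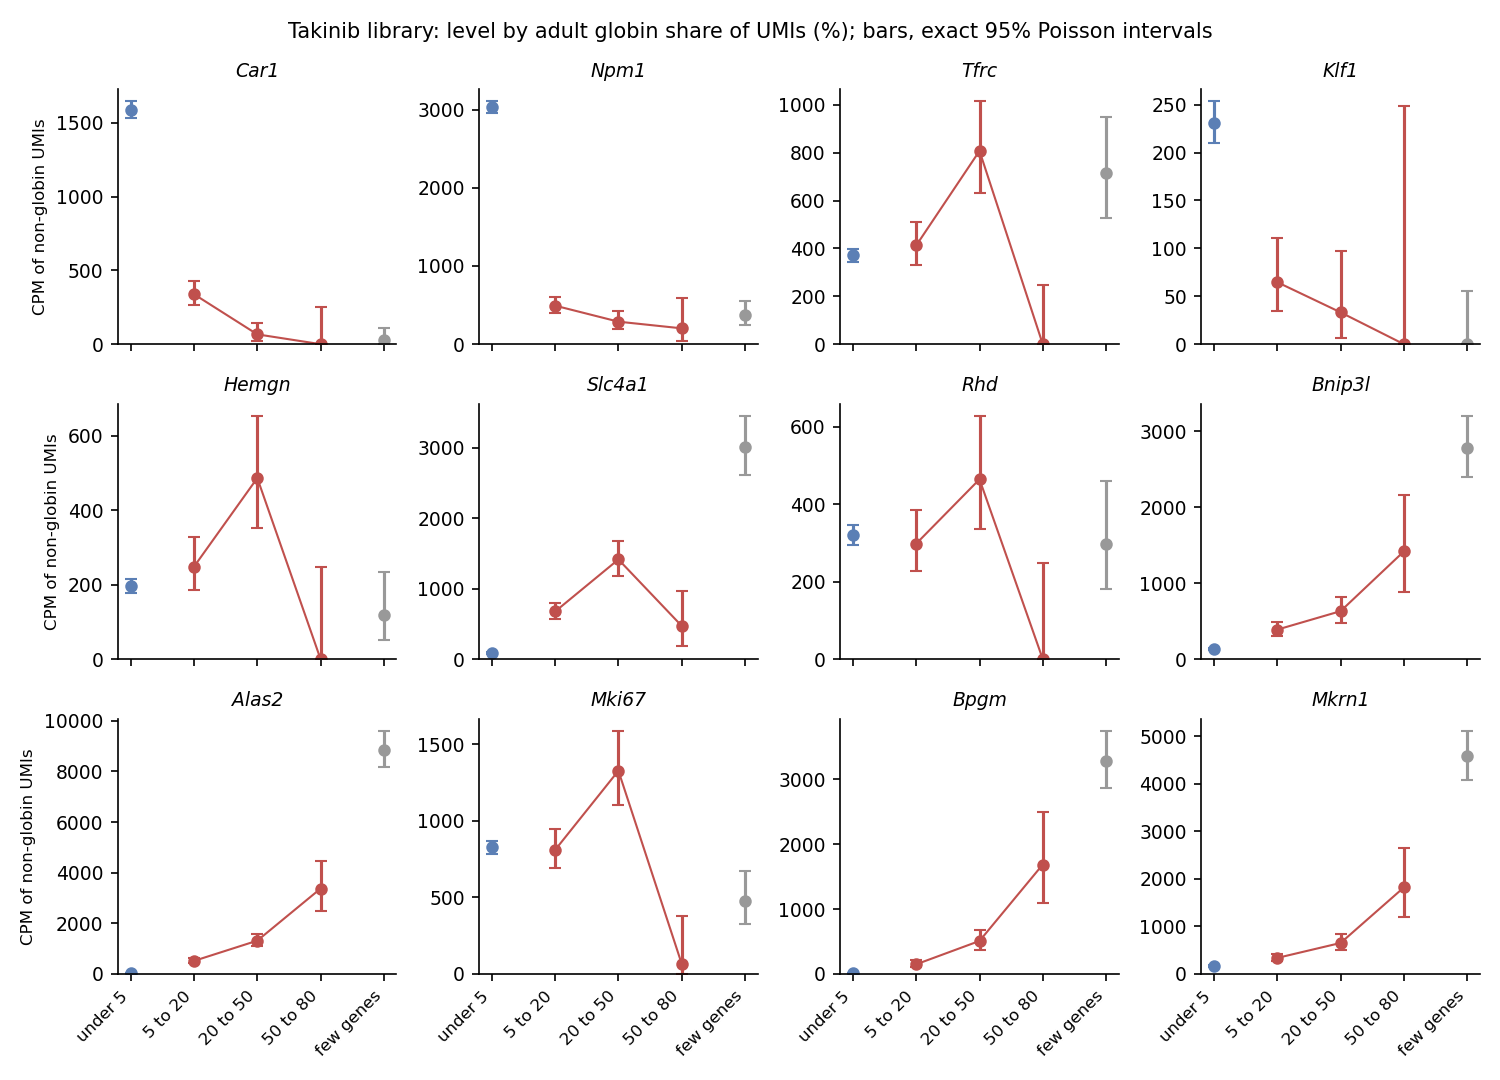
Level of 12 genes in CPM of non-globin UMIs (vertical, linear, separate scales) by globin share of UMIs in percent, with exact 95% Poisson intervals; red points are the erythroid cells in 3 ranges, blue is 124 takinib barcodes of under 5% globin with at least 10 erythroid marker UMIs, and grey is 186 takinib barcodes of at least 50% globin with too few genes for the filters. Car1 and Npm1 are highest at the left, Slc4a1, Rhd, Tfrc and Hemgn peak among the red points at 20 to 50%, and Alas2, Bnip3l, Bpgm and Mkrn1 stand highest at the right.

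Of the iron genes, Slc25a37, the mitochondrial iron importer, stood at 363, 1095 and 1349 CPM, from 73, 99 and 20 UMIs. It was the 1 of 8 iron genes past 2-fold between the lowest and middle range, a share near the 9.42% of all genes that were higher. Fth1, the ferritin heavy chain, had the highest level of any gene named here other than globin, at 46355 CPM, but was at 49882 CPM in neutrophils. Among the redox and carbon dioxide genes, Car2 stood at 1074, 1770 and 539 CPM, Prdx2 at 1412, 1759 and 1686 CPM, and Gpx1 at 3266, 4678 and 6541 CPM. Gpx1 had 657, 423 and 97 UMIs in 35, 37 and 13 cells, fewest per cell in the range of most globin. Cat, encoding catalase, stood at 59.7, 177 and 539 CPM from 12, 16 and 8 UMIs. It was the 1 of these 10 genes at least 2-fold higher, with 2 lower, Car1 and Sod1 (median 0.12). Epor, the erythropoietin receptor, had 20 UMIs in 15 cells.

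Transcripts typical of other cells were present beside the erythroid ones. After Fth1, and leaving out globin, mitochondrial and ribosomal protein genes, the highest levels were those of Saa3 at 34491 CPM and Cxcl2 at 8427 CPM, inflammatory genes that macrophages held at 16138 and 3108 CPM and neutrophils at 15839 and 22848 CPM. The summed macrophage list stood at 4738, 5331 and 2225 CPM in the 3 globin ranges, against 22212 in C1q macrophages, and the neutrophil list, without the genes of the rule, at 492, 1106 and 3169 CPM against 11958 in neutrophils. In 34 of 85 cells a list for another cell type had at least as many UMIs as the erythroid list, in 17 of 35, 13 of 37 and 4 of 13 cells by range. The macrophage list exceeded the erythroid list in 27 cells, the neutrophil list in 7, the megakaryocyte list in 5, the fibroblast list in 4, and the endothelial and epithelial lists in 1 each. The list for mast cells and basophils had 3 UMIs, and Elane, Mpo, Cd79b, Ms4a1, Cldn4 and Emcn were at 0. One member held 95.9% of the 146 endothelial UMIs, and U90926 and Plvap, which of the genes with at least 50 UMIs had the lowest ratios of the middle over the lowest range, came from 4 and 2 cells. The split into cells with and without another list as high was made after these values were seen. Saa3 stood at 54630 CPM (9915 UMIs) in the 34 cells and 5228 CPM (653 UMIs) in the 51 whose erythroid list was highest. Cxcl2 stood at 10166 and 5901 CPM in the same order. In the 51 cells whose erythroid list was highest, Alas2 differed between the ranges by a log2 ratio of 1.37 and 9 membrane genes were at least 2-fold higher. The part of other cells' RNA in the remaining differences between ranges was not tested.

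Cycling was measured by the UMIs of 24 G2M genes (used in mitosis, such as Mki67, Top2a and Ube2c) and 20 S genes (used in DNA replication, such as Pcna, Rrm2 and the Mcm helicases). At least 3 G2M UMIs were found in 40 of 85 cells, 47.1% [36.1, 58.2]. The share was 9.94% in neutrophils and 15.3% in C1q macrophages. Since cells differ in depth, the share expected after drawing 500 non-globin UMIs from each cell was also computed: it was 35.6% in erythroid cells, 1.09% in neutrophils and 1.33% in macrophages, with no erythroid cell too shallow. By range of globin, the share at equal depth was 39.7%, 42.3% and 5.33%, from 19 of 35, 18 of 37 and 3 of 13 cells as sequenced. The cells of most globin thus had the lowest share, with a wide interval as sequenced of 23.1% [5.04, 53.8]. In the 51 cells whose erythroid list was highest, the share was 66.7%, and 56.7% at equal depth.

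At least 3 S UMIs were found in 29 of 85 cells, 34.1% [24.2, 45.2], and 18.9% at equal depth. The share at equal depth was 21.1% and 23.5% in the lower ranges of globin, and 0 of 13 cells reached 3 S UMIs at 50 to 80%. Neutrophils had 0.179% and C1q macrophages 0.561% at equal depth. Of the 40 cells with at least 3 G2M UMIs 27 also had at least 3 S UMIs, against 2 of the other 45. Between the lowest and the middle range 5 of 16 S genes were at least 2-fold lower and 0 higher (median -0.60), whereas of 23 G2M genes 1 was higher, Nusap1, and 0 lower (median 0.02). Over all genes 10.8% were at least 2-fold lower and 9.42% higher. Dut and Cdc6, used to make and license DNA, stood at 159 and 89.5 CPM in the lowest range and 22.1 and 11.1 CPM in the middle. Mki67, the proliferation antigen on chromosome 7 (135689784 to 135716361, minus strand), stood at 810 CPM [691, 945] in the lowest, 1327 [1100, 1587] in the middle and 67.4 [1.71, 376] in the highest range. Ube2c did not share that order, at 452, 619 and 607 CPM. The number of S genes at least 2-fold lower was 15 with a globin minimum of 2% and 0 with a minimum of 10%, and 4 G2M genes were lower, with a median of -0.79, when 2000 UMIs and 1000 genes were required. The single member with most G2M UMIs supplied 13.9% of them.

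**Figure D3:**
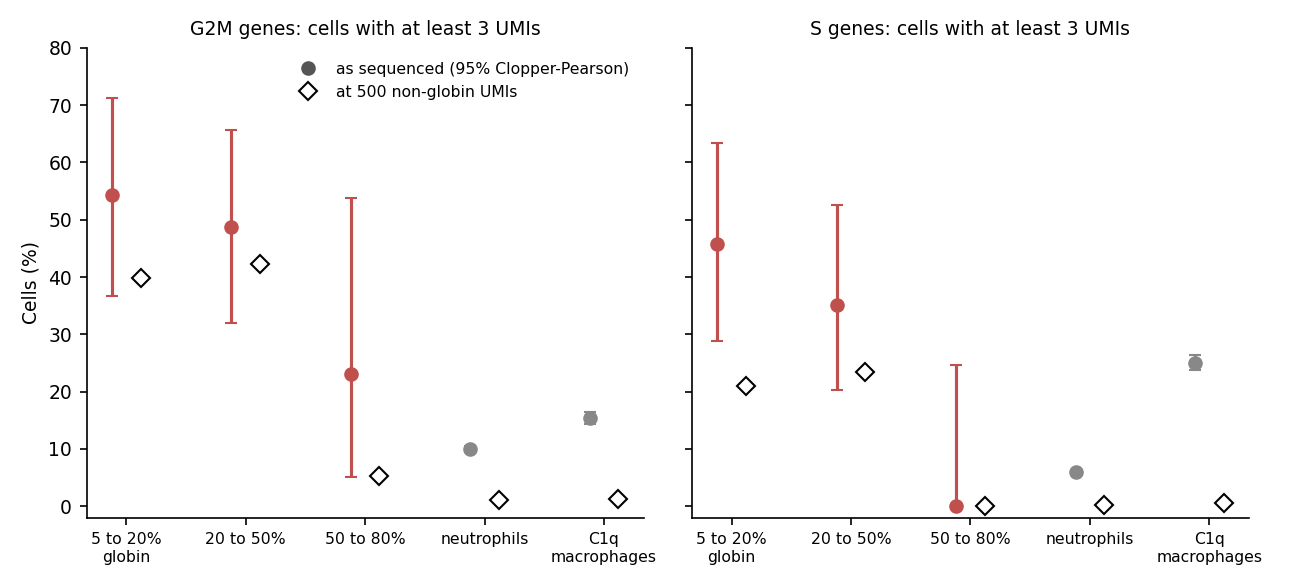
Percent of cells with at least 3 UMIs of the G2M genes (left) and of the S genes (right) in the 3 globin ranges and in takinib neutrophils and C1q macrophages; circles with 95% Clopper-Pearson bars are as sequenced and open diamonds are at 500 non-globin UMIs. The lower ranges stand at 39.7% and 42.3% for G2M at equal depth, and the highest range at 5.33%.

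Erythroid markers and G2M genes went together from cell to cell. The Spearman correlation of their shares of non-globin UMIs was 0.70 over 85 cells, which share a library and a denominator and are described, not tested. Globin share had a correlation of -0.11 with the G2M share and -0.28 with the S share. The cells were therefore also compared by G2M class, a comparison chosen after the values were seen. A class cut at a count is a range, and 15 cells had 2 to 4 G2M UMIs. The 40 cells with at least 3 had a median of 2688.5 UMIs and 21.2% globin, and the other 45 had 4567 UMIs and 28.3% globin, so the cells called cycling were the shallower ones.

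Most erythroid marker, heme, membrane and transcription factor genes were higher in the cells with at least 3 G2M UMIs. Of 15 erythroid markers 13 were at least 2-fold higher and 0 lower (median 2.70), of 13 heme genes 10 higher and 1 lower (median 2.63), of 22 membrane and skeleton genes 16 higher and 1 lower (median 2.12), and of 13 transcription factors 8 higher and 0 lower. Over all 4258 genes 19.1% were at least 2-fold higher and 17.5% lower, and the median was -0.01. Slc4a1 stood at 1647 CPM [1432, 1885] against 337 [257, 433]. Hemgn, a nuclear protein of erythroid cells, had 94 UMIs in 27 of the 40 cells and 0 in the other 45, which is at least 43.6-fold higher against 3 counts over the class. Klf1 had 16 UMIs against 0 and Tal1 26 against 0. Tfrc stood at 1022 against 140 CPM, Cpox at 874 against 44.9 CPM, and Ccnd3, the cyclin D of erythroblasts, at 429 against 56.1 CPM.

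Alas2, the late genes and the genes of erythropoietin signalling did not share this order. Alas2 stood at 632 CPM [502, 786] in the cells with at least 3 G2M UMIs and 1077 [930, 1241] in the others, a log2 ratio of -0.76. Bpgm stood at 117 CPM [65.5, 193] against 482 [386, 596], Mkrn1 at 219 against 707 CPM and Ube2o, a ubiquitin ligase of reticulocytes, at 54.6 against 230 CPM. Of 14 late genes 3 were at least 2-fold higher and 3 lower (median -0.22), against 19.1% and 17.5% of all genes. The 3 higher were Fbxo7, with 13 UMIs against 1, Arl4a at 109 against 33.7 CPM and Ypel4 at 78.0 against 22.4 CPM. Of 8 erythropoietin signalling genes 1 was at least 2-fold higher, Epor, with 19 UMIs against 1, and 5 were lower, among them Jak2, the kinase bound to the receptor, at 39.0 against 135 CPM (median -1.06). Neutrophils held 141 CPM of Jak2, 941 of Pim1 and 419 of Socs3, so these genes are not erythroid alone. The whole list stood at 2007 CPM in neutrophils and 1129 CPM in the 85 erythroid cells. Genes of other cells were also lower in the cycling class: the macrophage list stood at 3543 against 5688 CPM, the neutrophil list at 539 against 993 CPM, the fibroblast list at 101 against 1621 CPM and Saa3 at 21103 against 44114 CPM. One member supplied 151 of the 289 fibroblast UMIs of the other cells, which stood at 857 CPM without it, an alternative chosen after seeing the data. Their part in the differences was not tested.

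With only the 51 cells whose erythroid list was highest, 34 with at least 3 G2M UMIs stood against 17 without. Slc4a1 was 2116 against 1054 CPM and Hemgn 92 UMIs against 0. Alas2 was 759 against 2331 CPM, Bpgm 96.2 against 766 CPM and Mkrn1 224 against 1469 CPM. The erythroid markers at least 2-fold higher then numbered 8, the heme genes 7 and the membrane genes 10, and 8 late genes were at least 2-fold lower in place of 3. Over all genes tested in these cells 746 were higher and 424 lower, against 815 and 746 in the 85, and the median was 0.39. The numbers of genes tested in the 51 cells are not given here, and the erythroid markers also chose these cells. Their counts can therefore not be set against the shares of all genes in the 85. The macrophage list stood at 887 and 1341 CPM and Saa3 at 5513 and 4375 CPM. Median globin share was 23.3% in the 34 cells and 45.3% in the 17, and ribosomal protein genes made up a median of 13.6% and 7.01% of non-globin UMIs.

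**Figure D4:**
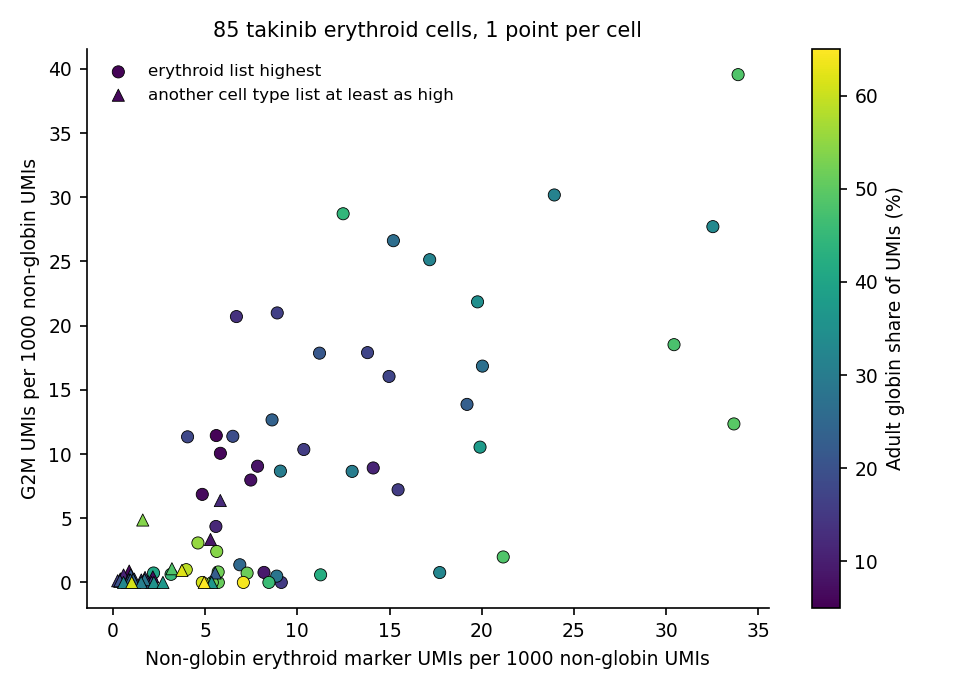
G2M UMIs against non-globin erythroid marker UMIs, both per 1000 non-globin UMIs, for each of the 85 takinib erythroid cells, coloured by globin share in percent; triangles are the 34 cells in which another cell type's list had at least as many UMIs. Cells with most G2M UMIs stand to the right and are circles, and triangles gather near the origin.

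**Figure D5:**
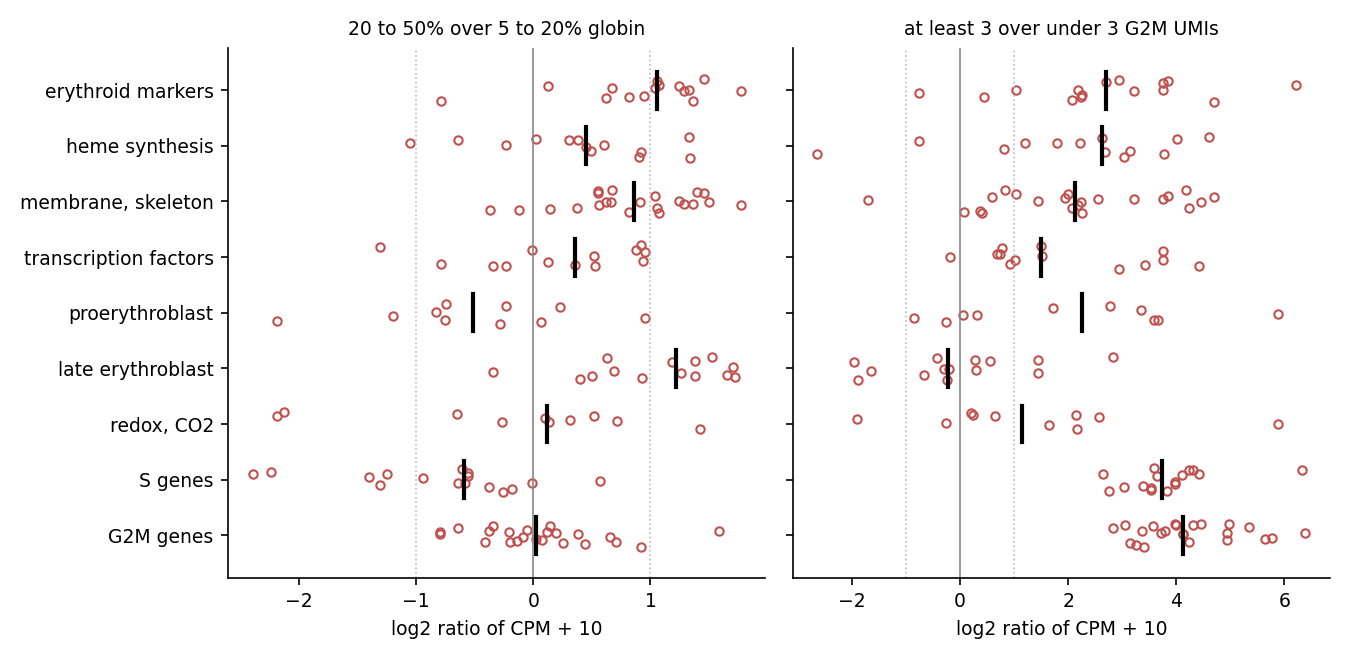
Log2 ratio of CPM with 10 CPM added, 1 open point per gene of at least 10 UMIs, for the middle over the lowest globin range (left) and for cells with at least 3 over under 3 G2M UMIs (right); black bars are list medians and dotted lines 2-fold. Late erythroblast genes have a median of 1.22 on the left and -0.22 on the right, and heme genes 0.45 and 2.63.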

How the data were processed

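Single-cell RNA was measured in 1 vehicle and 1 takinib library. The authors deposited raw UMI counts per gene and barcode, made with Cell Ranger 4 (vehicle) and 6.1.1 (takinib) per the file headers. The submitters' processing notes name Cell Ranger 2.1.1, bcl2fastq, STAR 2.0.4b, Subread, featureCounts 1.45 and the mm10 build, without roles. The annotation and chemistry are not given in the sources used here. The counts were not corrected for free RNA. No doublet caller was run, and an alternative left out the 5% of members with most UMIs.

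Groups came from the labels. Counts of the erythroid cells were summed over ranges of globin share or over G2M classes and scaled to CPM of non-globin UMIs. With 1 library per group no test was run and cells were not treated as replicates. Differences are log2 of CPM plus 10, and a change of 2-fold is a size, not a test. Genes needed at least 10 UMIs in the members for list counts. The genes named are, per list, the 4 of highest level and those past 2-fold, every globin, heme and transcription factor gene, and the 10 of highest level and the 10 largest changes each way among genes of at least 50 UMIs; Tent5c comes from the latter. Some genes that this rule names are not reported here. Values of the neighbouring sets and G2M classes outside that rule, such as Ccnd3, were chosen after they were seen. Members and lists were chosen with earlier results of these data known. The equal-depth share is the hypergeometric expectation. Of the 16 markers 15 were in the gene table. The calculation was tested on simulated data. Python 3.11.15, numpy 2.4.6, scipy 1.17.1, pandas 2.3.3 and matplotlib 3.10.9 were used. Promoters are from RefSeq (5 of 6 genes sought had 1) and positions from GENCODE M21.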

Additional observations from a re-analysis of the deposited data

Results flagged for a closer look

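Outside the rule, 2 further sets of takinib barcodes carried erythroid transcripts at numbers above the vehicle library. Both sets were defined after their values were seen, and neither enters the comparisons above.

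The first set was 124 takinib barcodes that passed the filters and the limits on other cell types but had under 5% globin and at least 10 UMIs of the erythroid markers. They were 0.463% [0.385, 0.552] of the takinib barcodes past the filters, against 0 of 9872 in vehicle, which allows a share of up to 0.0304%. Their median was 15344.5 UMIs, 3706.5 genes and 0.238% globin. Car1 stood at 1590 CPM, Npm1 at 3031 CPM, Klf1 at 231 CPM and Myb at 183 CPM, and Kit was found in 59 of the 124. Alas2 stood at 30.2 CPM, Slc4a1 at 89.0 CPM and Bpgm at 11.8 CPM. At least 3 G2M UMIs were found in all 124, and in 45.5% at equal depth. Because at least 10 marker UMIs were required, deep barcodes had the better chance to enter.

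The second set was 186 takinib barcodes of at least 50% globin that missed the filters, all 186 for having under 500 genes and 20 also for having under 1000 UMIs. They were 0.545% [0.469, 0.628] of the 34158 takinib barcodes, against 6 of the 25938 vehicle barcodes of at least 500 UMIs, 0.0231% [0.00849, 0.0503]. Their median was 1639 UMIs, 187 genes and 81.4% globin. Alas2 stood at 8858 CPM of non-globin UMIs, Mkrn1 at 4578 CPM, Bpgm at 3281 CPM and Slc4a1 at 3012 CPM. Klf1 and Kit had 0 UMIs and Car1 had 2. In the 6 vehicle barcodes Alas2 had 17 UMIs, Mkrn1 13 and Bpgm 9.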

How the results depend on the processing

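No paired analysis was possible because each treatment has 1 library. Allowing 500 UMIs and 250 genes gave 167 takinib and 3 vehicle cells, requiring 2000 UMIs and 1000 genes gave 45 and 0, a globin minimum of 2% gave 2 vehicle cells, at least 3 marker UMIs left 0 vehicle cells, and cells whose erythroid list was highest numbered 51, an alternative chosen after seeing the data. The share with at least 3 marker UMIs was 100% in that set and, by construction, when 3 were required. The share with at least 3 G2M UMIs was 66.7% in that set and 56.7% at equal depth. The Alas2 log2 ratio between ranges was 1.89 at a globin minimum of 2%. Membrane and skeleton genes at least 2-fold higher numbered 5 at 2000 UMIs and 1000 genes, 6 at a globin minimum of 2%, 5 over all UMIs, 5 at the median split and 6 with at least 50 UMIs per gene. All genes higher and lower numbered 653 and 971 at a globin minimum of 2%, and 60 and 58 with at least 50 UMIs. The cause of these moves was not tested. Depth limits the range of most globin, whose 14829 non-globin UMIs put 3 counts at 202 CPM.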

Other observations

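The 168 takinib barcodes left out for transcripts of other cells resembled the erythroid cells in part. Their median globin share was 18.7% and Alas2 stood at 618 CPM, against 891 CPM in the 85 erythroid cells. Slc4a1 stood at 333 against 884 CPM and Hemgn at 86.4 against 307 CPM. Bpgm was at 249 against 330 CPM and Mkrn1 at 436 against 503 CPM. At least 3 G2M UMIs were found in 29.8% of them, and in 9.78% at equal depth, against 47.1% and 35.6%.

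Xist, the RNA of the inactive X chromosome, was found in 59 of the 85 erythroid cells, and no UMI of the Y-linked genes was counted in them. By range of globin, Xist was found in 32 of 35, 25 of 37 and 2 of 13 cells. This nuclear RNA was thus least often found in the shallowest cells of most globin.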
